A study of Mus musculus with 384 samples.

Results

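Keratins are the intermediate filament proteins of epithelial cells, and their genes were followed here through the open chromatin of a mouse mammary tumor. Members were the protein-coding genes of the GENCODE vM1 annotation (mouse build mm9) whose symbol is Krt followed by digits alone. They numbered 46 of 22367 protein-coding genes, 25 on chromosome 11 and 21 on chromosome 15. Genes with a letter after the digits (Krt6a, Krt6b, Krt33a, Krt33b) and the entry Krt72-ps fell outside that rule and are given only as neighbours.

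The tumor came from an MMTV-PyMT mouse, 3 months old, in which a viral promoter active in mammary epithelium drives the polyomavirus middle T oncogene. Fixed cells carrying antibodies to EpCAM (an epithelial adhesion protein) and CD45 (a leukocyte phosphatase) were tagmented and index sorted by Pi-ATAC, which reads accessible DNA and antibody fluorescence in the same cell. The 4 plates of 96 wells formed 1 group in the labels, which give no stain per well, but the study gated EpCAM+ and CD45+ cells and analysed them in nearly equal numbers. Leukocytes, a small minority of the stained tumor cells, thus made up a large part of the pool, and keratins are not genes of that lineage. Their processed data were a single set of 50000 accessible windows of 500 bp, so no replicate error exists, tumor cells and immune cells cannot be told apart, and fewer cells of a type and less open chromatin per cell cannot be told apart either. The windows carried neither counts nor scores, which leaves the depth behind each of them unknown. Intervals on shares and densities cover counting error only, and every comparison is a description without a test.

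Keratin filaments assemble from pairs of an acidic type I chain and a basic type II chain. In the mouse the type I genes lie together on chromosome 11 and the type II genes on chromosome 15, with the type I gene Krt18 as an exception beside its partner Krt8. The mammary gland uses a small part of the family. Luminal cells carry Krt8, Krt18, Krt19 and Krt7, basal and myoepithelial cells carry Krt5, Krt14 and Krt17, and most of the remaining genes serve epidermis, mucosa, cornea, hair, nail or the root sheath of the hair follicle.

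Some windows, chosen by distance to a start alone, are shown first. They are the sole window found at a keratin promoter and the ones closest to the starts of the main luminal and basal keratins of the mammary gland. The central 150 bases of each are written on the plus strand of mm9, and capitals mark matches to the short AP-1 (TGACTCA), AP-2 (GCCNNNGGC) and TEAD (GGAATG) words on either strand.
Krt24 promoter window, chr11:99146311-99146460: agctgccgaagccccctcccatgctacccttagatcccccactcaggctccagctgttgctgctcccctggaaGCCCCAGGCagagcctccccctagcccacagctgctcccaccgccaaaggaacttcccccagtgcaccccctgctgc
Krt8 window, chr15:101837176-101837325: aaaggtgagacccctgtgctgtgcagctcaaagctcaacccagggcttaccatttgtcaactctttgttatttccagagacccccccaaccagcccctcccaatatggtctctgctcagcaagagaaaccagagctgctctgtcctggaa
Krt18 window, chr15:101846652-101846801: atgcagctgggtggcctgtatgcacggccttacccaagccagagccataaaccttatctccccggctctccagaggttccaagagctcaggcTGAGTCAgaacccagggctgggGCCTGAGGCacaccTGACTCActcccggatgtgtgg
Krt19 window, chr11:100006296-100006445: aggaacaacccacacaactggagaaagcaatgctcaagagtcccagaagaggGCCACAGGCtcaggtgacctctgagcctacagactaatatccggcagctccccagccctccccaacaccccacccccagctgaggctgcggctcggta
Krt5 window, chr15:101558379-101558528: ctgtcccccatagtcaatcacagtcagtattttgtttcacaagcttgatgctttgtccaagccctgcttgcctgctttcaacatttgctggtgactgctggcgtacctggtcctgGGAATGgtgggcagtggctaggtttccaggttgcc
Krt14 window, chr11:100036143-100036292: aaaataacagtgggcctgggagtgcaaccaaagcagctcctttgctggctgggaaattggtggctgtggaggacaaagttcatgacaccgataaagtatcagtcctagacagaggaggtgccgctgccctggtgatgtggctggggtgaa

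Keratin promoters mostly lacked an accessible window. A window centre lay within 1 kb of an annotated start site (the distance used here for a promoter) at 1 of 46 keratin genes, or 2.17% (exact 95% binomial interval 0.0550% to 11.5%), against 43.4% of all protein-coding genes. That gene was Krt24, a type I keratin grouped here with those of mucosa and cornea. The share was 42.8% over the 1653 protein-coding genes of chromosome 11 and 41.0% over the 797 of chromosome 15. None of the 21 keratin genes of chromosome 15 had a promoter window (interval 0% to 16.1%).

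Farther out, the keratin genes were not short of windows altogether. Within 10 kb, 16 keratin genes had a window (34.8%, interval 21.4% to 50.2%), against 61.3% of all protein-coding genes. Within 50 kb, 42 had one (91.3%, interval 79.2% to 97.6%), against 84.5%. That share was 88.3% over the protein-coding genes of chromosome 11 and 90.0% over those of chromosome 15, both within the interval. The number within that reach was lower, with a median of 2.00 per keratin gene (range 0 to 6, mean 1.98) and 3.00 per protein-coding gene (mean 4.10). The distance from a start site to the nearest window had a median of 15447 bp, from 190 bp at Krt24 to 74938 bp at Krt20, and 3254 bp over all protein-coding genes. It was measured from whichever annotated transcript start was nearest. That start lay inside the gene, past its 5′ end, for genes such as Krt7, Krt14, Krt19, Krt32, Krt42 and Krt222. Neighbouring keratin genes share windows, so that the 91 counts within 50 kb came from 33 distinct windows, 12 on chromosome 11 and 21 on chromosome 15. The intervals on shares of keratin genes treat the genes as independent and take no account of this sharing.

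**Figure D1:**
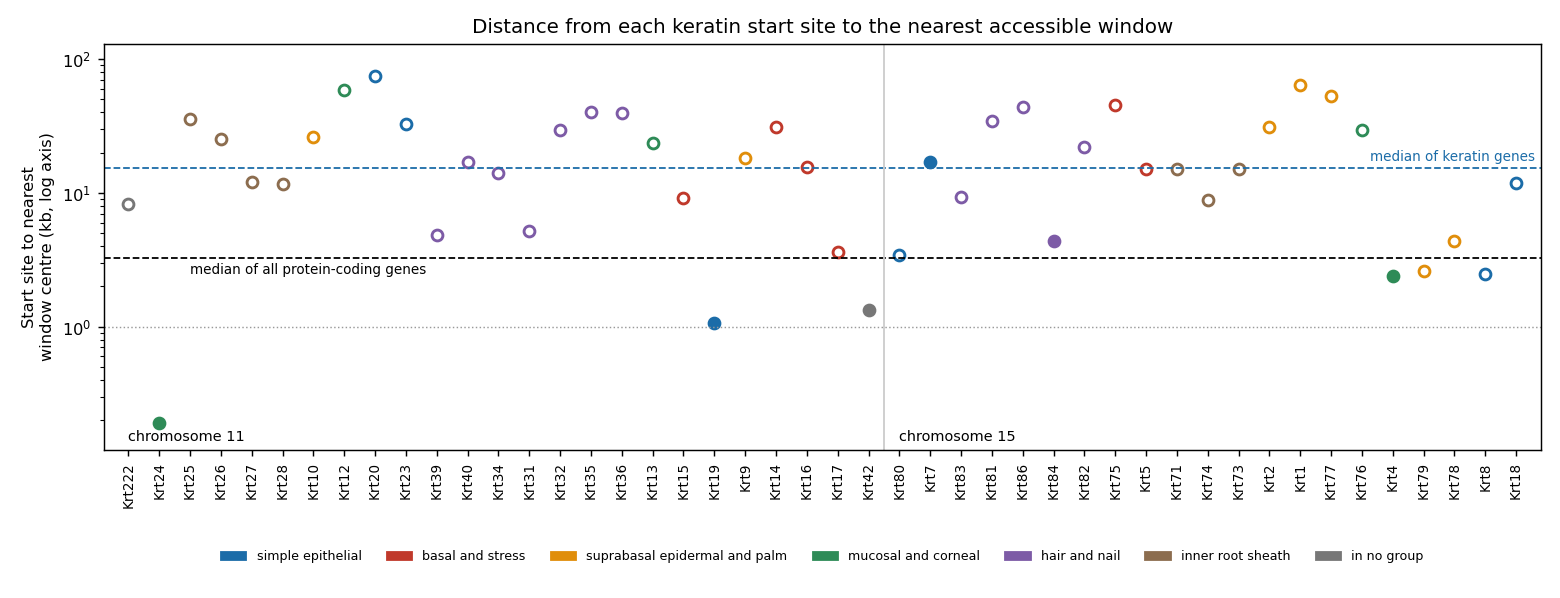
Distance from the nearest annotated transcript start of each of the 46 keratin genes to the nearest window centre (y axis, kb, log axis), with genes in chromosomal order on the x axis and colors for their group of epithelium. Filled points mark a nearest window inside the gene, dashed lines the medians of 15447 bp for keratin genes and 3254 bp for all protein-coding genes, and the dotted line 1 kb, which only Krt24 falls under.

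The simple epithelial keratins, the group that luminal mammary cells draw on, had no promoter window at any of 7 genes. The nearest windows lay 1064 bp from a start inside Krt19, 2478 bp from the start of Krt8, 3404 bp from that of Krt80 and 11920 bp from that of Krt18. The Krt19 window, at chr11:100006121-100006620, was inside the gene in intron 2 and was the closest to a start after that of Krt24. Those of Krt8 (chr15:101837001-101837500) and Krt18 (chr15:101846477-101846976) were both upstream of their genes and between them, since this pair is transcribed in opposite directions. The Krt18 window lay almost midway between the starts of Krt8 and Krt18. Krt8 had 4 windows within 50 kb, Krt18 had 3, and Krt19 and Krt7 had 2 each. The window nearest to Krt7 (chr15:101259654-101260153) was 17024 bp from a start inside the gene, in the untranslated part of exon 9 of 9. It lay closer to the start of the hair keratin Krt83 (9332 bp). Krt23, another type I member, had 1 window at 33022 bp. Krt20, a keratin of intestinal epithelium and urothelium, had none within 50 kb.

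Basal and stress keratins also lacked promoter windows, at 0 of 6 genes, with a median distance of 15405 bp. Krt5 and Krt14, partner chains of the basal layer, were at 15132 bp and 31126 bp. Krt5 had 2 windows within 50 kb and Krt14 had 1, and neither gene was the nearest protein-coding start of any window. The window closest to Krt5 was nearest to Krt71 by a narrow margin, at 15086 bp against 15132 bp. The window closest to Krt14 was nearest to Krt9, at 18342 bp. Krt17, a keratin of basal cells that is induced in injured skin, had a window 3612 bp upstream, and Krt15, found in basal cells and hair follicle stem cells, had one at 9108 bp. The Krt17 window, also the nearest to Krt16, lay inside the neighbouring gene Krt42, and the Krt15 window lay inside Krt19. Krt16, which is induced in wounded and proliferating epidermis, was at 15678 bp, and Krt75, of the companion layer of the hair follicle, at 45452 bp with 1 window within 50 kb.

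Keratins of the upper epidermis and of palm skin covered a wide range, with no promoter window at 7 genes. Krt79 and Krt78 had 6 windows each within 50 kb, the nearest 2614 bp and 4382 bp upstream of their starts. Krt1, the main suprabasal type II keratin, and Krt77 had none within 50 kb (63658 bp and 52620 bp). Krt10, the partner of Krt1, had 1, at 26150 bp, the palm and sole keratin Krt9 had 2 with the nearest at 18342 bp, and Krt2, of the uppermost epidermal layers, had 2 with the nearest at 31042 bp. Mucosal and corneal keratins spanned the whole range. Krt24 was at 190 bp, and Krt4, a keratin of esophagus and oral mucosa, had 6 windows within 50 kb with the nearest in its intron 2, 2410 bp from the start. Krt13, the partner of Krt4, was at 23490 bp, Krt76, of the palate, at 29406 bp, and Krt12, the corneal type I keratin, at 59048 bp with none within 50 kb.

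Hair and nail keratins had windows in reach at all 12 genes, 1 or 2 each, and at the promoter of none (interval 0% to 26.5%). The nearest were 4368 bp from the start of Krt84 (inside the gene, in coding exon 6 of 9), 4822 bp from Krt39, 5190 bp from Krt31 and 9332 bp from Krt83. The other 8 (Krt32, Krt34, Krt35, Krt36, Krt40, Krt81, Krt82 and Krt86) lay between 14186 bp and 44006 bp from a window. Inner root sheath keratins, which form the sleeve around the growing hair, had no promoter window at 7 genes and a median distance of 15086 bp. Krt74 was the closest at 8808 bp and Krt25 the farthest at 35810 bp. Krt26, Krt27 and Krt28 had 1 window each within 50 kb, Krt73 had 2, and Krt71, Krt74 and Krt25 had 3. Krt42 and Krt222, which belong to none of these groups, had 3 each. The nearest to Krt222 was 8256 bp from a start inside that gene. The nearest to Krt42 was in its coding exon 6 of 8, 1338 bp from a start inside the gene.

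The median distances of the 6 groups ranged from 11920 bp for simple epithelial to 26150 bp for suprabasal keratins. The shortest distance in a group lay between 190 bp and 8808 bp and the longest between 35810 bp and 74938 bp, so the groups overlapped and no order was read from them. Close to the 1 kb limit, Krt24 at 190 bp was the sole gene inside, and Krt19 at 1064 bp, Krt42 at 1338 bp and Krt4 at 2410 bp were the next outside. For Krt19 and Krt42 the distance ran to a start inside the gene, not to its 5′ end.

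The Krt24 promoter window was examined in detail. Krt24 (ENSMUSG00000020913, chr11:99141273-99146576, minus strand) had its window at chr11:99146136-99146635, centred 190 bp into the gene over the coding part of exon 1 of 8. A further window at chr11:99148206-99148705 lay 1880 bp upstream. The promoter window had a GC content of 60.6% with 12 CpG, and the stretch printed above held 1 AP-2 word, GCCCCAGGC, 2 bp from its centre. The 300 bases around the Krt24 start itself (250 before it and 50 after) had a GC content of 39.7% and 3 CpG, against medians of 55.0% and 11.0 over all protein-coding genes.

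Windows were mapped along each cluster next, counting each window once. The type I cluster, from Krt222 to Krt42 (chr11:99094075-100131185, 1037 kb), held 10 windows, or 9.64 per Mb (exact 95% Poisson interval 4.62 to 17.7). The rest of chromosome 11 held 19.7 per Mb. The type II cluster, from Krt80 to Krt18 (chr15:101177875-101862457, 684.6 kb), held 16, or 23.4 per Mb (interval 13.4 to 38.0), and the rest of chromosome 15 held 16.0 per Mb. The interval of the chromosome 11 cluster lay below its chromosome and that of the chromosome 15 cluster included it. The chromosome 11 span includes 468.0 kb between Krt40 and Krt33a that holds no member. Both were crowded with genes. Protein-coding starts stood at 80.0 per Mb in the chromosome 11 cluster and 13.0 per Mb outside it, and at 40.9 and 7.48 per Mb for chromosome 15.

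**Figure D2:**
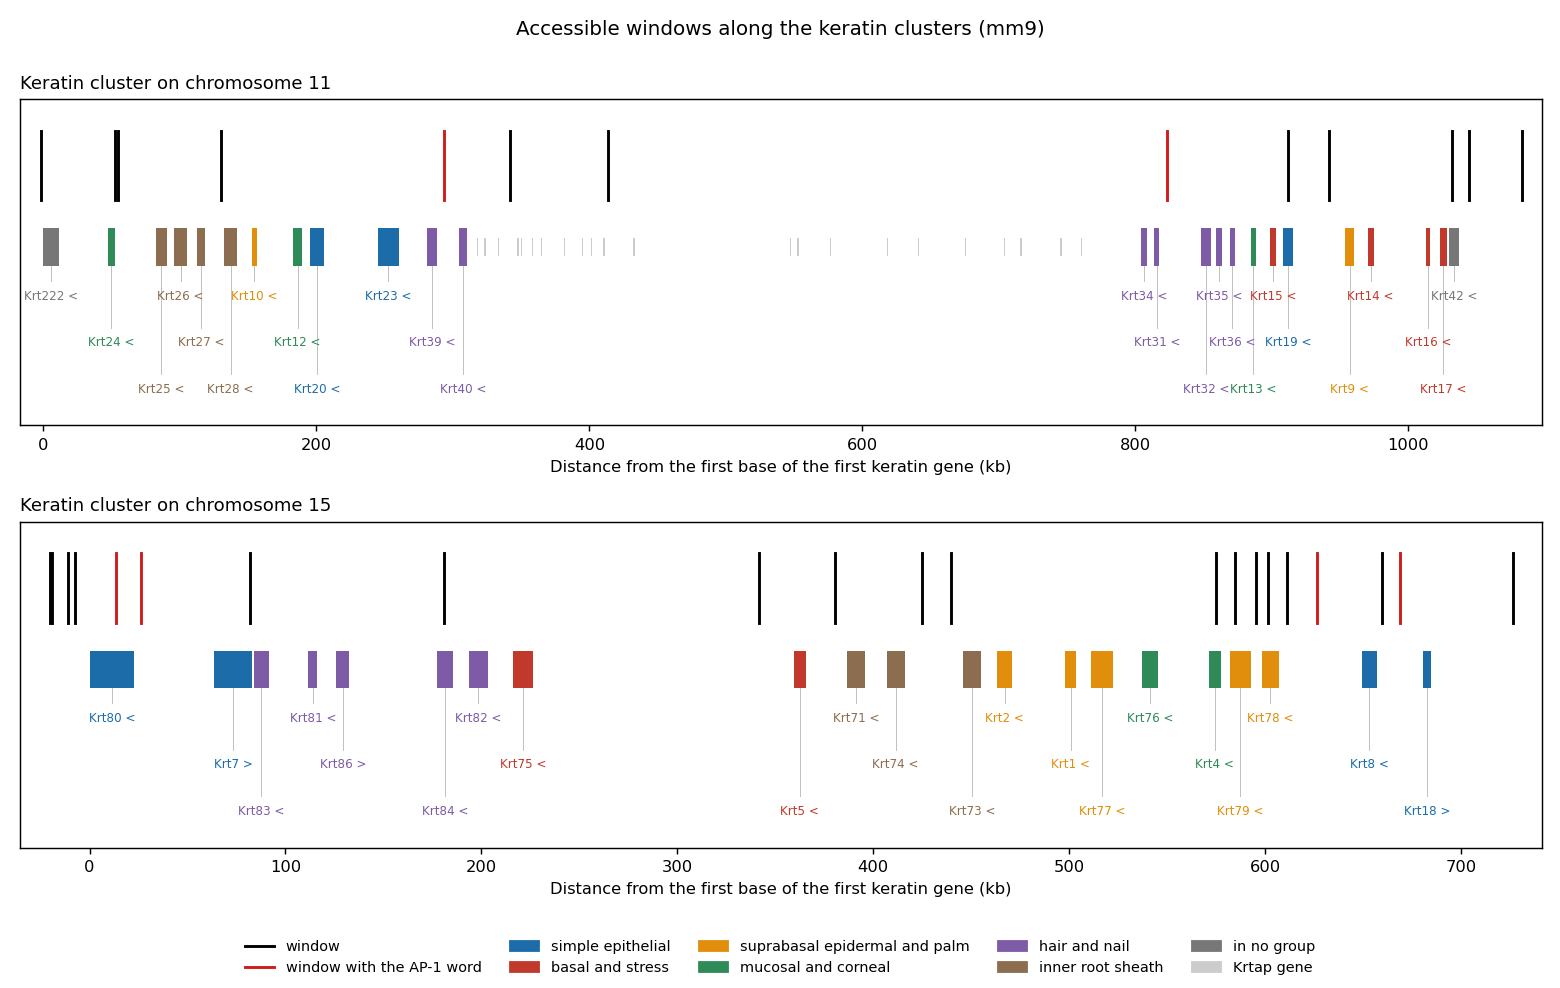
Windows (vertical bars, in red those holding the AP-1 word) and keratin genes (boxes, colored by group, with arrowheads for the direction of transcription) along the clusters of chromosomes 11 and 15, on an axis of kb from the first base of the first keratin gene. The longest stretch without a window covers 408.6 kb of the chromosome 11 cluster, which includes many of its Krtap genes (grey), and the densest run spans Krt4 to Krt18 on chromosome 15.

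Stretches of the same length were laid end to end along each chromosome for reference. On chromosome 11, 85 such stretches held more windows than the keratin cluster, 26 held fewer and 1 held as many, with a median of 19.0. None had more protein-coding starts than the 83 of the cluster. Among the 30 stretches with at least 20 starts, 1 held fewer windows than the cluster, with a median of 32.0. On chromosome 15, 35 held more windows than the type II cluster, 4 held as many and all others held fewer, with a median of 8.00, and 2 had more than its 28 starts. Among the 11 of these with at least 20 starts the order turned, as 3 held fewer windows than the cluster and the median was 23.0 against its 16.

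Within the clusters the windows were unevenly spread. On chromosome 15, 8 windows lay in the 113.5 kb from Krt4 to Krt18, the block of Krt4, Krt79, Krt78, Krt8 and Krt18, which is 70.5 per Mb (interval 30.4 to 138.9). The adjoining 82.2 kb with Krt2, Krt1, Krt77 and Krt76 held 0. The block with Krt5, Krt71, Krt74 and Krt73 held 3, and the outer block from Krt80 to Krt75 held 4 in 226.5 kb (17.7 per Mb). On chromosome 11, the block from Krt222 to Krt40 held 4 windows (12.9 per Mb, interval 3.51 to 33.0). The block from Krt33a to Krt42 also held 4 (15.5 per Mb, interval 4.21 to 39.6). The 468.0 kb between these blocks, filled by genes of keratin-associated proteins, held 2 (4.27 per Mb, interval 0.518 to 15.4). The interval of that stretch lay below the 19.7 per Mb of the rest of chromosome 11, and the intervals of both keratin blocks included it. These blocks were drawn after the windows had been seen.

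**Figure D3:**
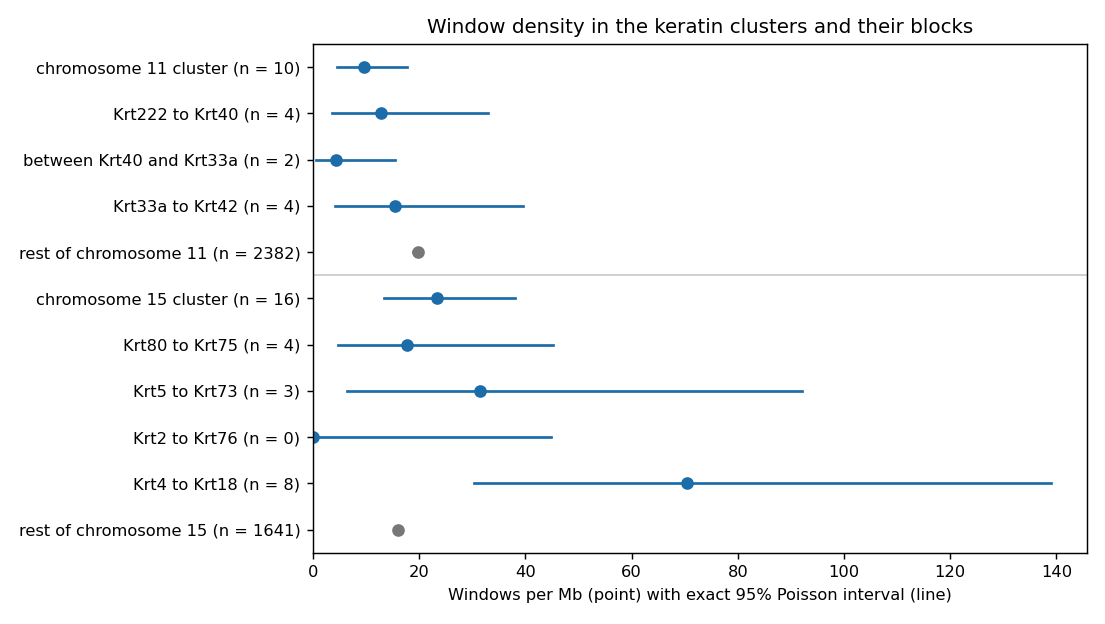
Windows per Mb (x axis) in each keratin cluster, in its blocks and in the rest of the same chromosome (grey), with exact 95% Poisson intervals as lines and the number of windows in parentheses. The Krt4 to Krt18 block stands at 70.5 per Mb and the stretch between Krt40 and Krt33a at 4.27 per Mb.

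Long stretches without any window ran through both clusters. The longest, 408.6 kb at chr11:99508253-99916804, contained the starts of Krt34 and Krt31 among 45 protein-coding starts. A further 162.4 kb of chromosome 11 contained those of Krt28, Krt10, Krt12, Krt20, Krt23 and Krt39, and 89.2 kb contained Krt9, Krt14, Krt16 and Krt17. On chromosome 15, chr15:101359134-101519087 contained Krt84, Krt82 and Krt75, 134.7 kb contained Krt73, Krt2, Krt1, Krt77 and Krt76, and 98.5 kb contained Krt83, Krt81 and Krt86. Together these 6 stretches, taken as the longest of each cluster, held the start of 23 of the 46 keratin genes. The next on chromosome 11, 89.3 kb between window centres, held those of Krt32, Krt35, Krt36, Krt13 and Krt15. The share of all protein-coding starts in such long stretches was not computed.

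Called peaks that did not reach the 50000 could be counted as well, because each window keeps the running number of its peak. At least 168208 peaks had been called, of which 49030 (29.1%) were kept. Around 45 of 46 keratin starts, between 1 and 12 numbers were absent between the windows on either side, and Krt24 was the only gene with 0. Numbers absent around Krt8, Krt18 and Krt14 were 6 each (in 32.9, 57.4 and 89.7 kb), around Krt7 7 (in 55.9 kb), around Krt10 8 (in 162.9 kb), around Krt19 2 (in 29.8 kb) and around Krt5 1 (in 39.1 kb). Over all protein-coding starts with a window on either side, 81.4% had an absent number there. The median was 6.00 numbers at keratin starts and 3.00 at all starts, and the numbers do not tell where in the gap the peaks lay. Neighbouring keratin starts share a gap and its numbers, so these values are not independent. The lengths of the gaps were not compared with those at all starts.

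The clusters differed in this respect too. Between 54 and 58 peaks had been called in the chromosome 11 cluster (52.1 to 55.9 per Mb, against 74.5 per Mb over the chromosome), and 17.2% to 18.5% of them were kept, against 25.8%. In the chromosome 15 cluster 69 to 75 had been called (100.8 to 109.6 per Mb, against 65.8), and 21.3% to 23.2% were kept, against 23.8%. Called peaks per Mb were thus below the value of the chromosome in the type I cluster and above it in the type II cluster. The blocks of the type I cluster differed. The stretch between Krt40 and Krt33a held 10.7 to 40.6 called peaks per Mb. The block from Krt222 to Krt40 held 51.5 to 67.7 and that from Krt33a to Krt42 held 73.5 to 123.7. The Krt4 to Krt18 block alone held at least 24 called peaks.

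Relative to genes, the 33 windows within 50 kb of a keratin start were mostly outside them. Of these, 9 were inside a keratin gene (5 in exons and 4 in introns), 13 upstream of the nearest keratin start and 11 downstream of it past the gene end. Inside any protein-coding gene were 10 (30.3%, interval 15.6% to 48.7%), against 52.3% of all windows. Keratin genes are short, with a median of 7.27 kb against 15.4 kb, and 9 of 46 (19.6%, interval 9.36% to 33.9%) had a window in the gene body, against 46.9% of all protein-coding genes. Coding sequence was under 4 of the 33 windows (12.1%, interval 3.40% to 28.2%) and 4.00% of all windows. These were the exonic windows of Krt24, Krt42, Krt84 and Krt79.

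Of the 33 windows, 24 had a keratin gene as their nearest protein-coding start, and those belonged to 16 genes. Krt80 was nearest to 4 windows, Krt78 to 3, and Krt24, Krt4 and Krt42 to 2 each. The remaining 11 genes, Krt8, Krt9, Krt18, Krt19, Krt28, Krt31, Krt39, Krt71, Krt79, Krt83 and Krt84, were nearest to 1 each, and 30 keratin genes to none. Over all protein-coding genes, 63.5% were the nearest start of a window within 50 kb, against 34.8% of keratin genes. Another 3 windows sat at promoters of other genes on the cluster edges or between keratins, those of Smarce1, Eif4b (80 bp away) and Krt72-ps (670 bp away). Smarce1, which encodes a chromatin remodeler subunit, borders the chromosome 11 cluster, and Eif4b, a translation factor, the chromosome 15 cluster. Krt6a, Krt6b, Krt33a and Krt33b had no promoter window, with the nearest window at 5400, 8618, 39528 and 25872 bp.

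Promoter sequence was compared because windows at promoters follow CpG content over the genome. In the 300 bases around the start, keratin genes had a median of 6.00 CpG (range 1 to 23) and protein-coding genes 11.0. At or below 11.0 CpG were 44 of 46 keratin genes, and of all genes there 20.0% had a promoter window, against 67.0% above it. The 2 keratin promoters above were those of Krt83 with 23 CpG and Krt18 with 17, neither of which had a window. Among the keratin genes, 15 had 4 to 6 CpG and 14 had 7 to 10, classes in which 22.6% and 36.5% of all protein-coding genes had a promoter window. Krt24 was in the class of 2 or 3 CpG, where 12.7% of all genes had one.

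**Figure D4:**
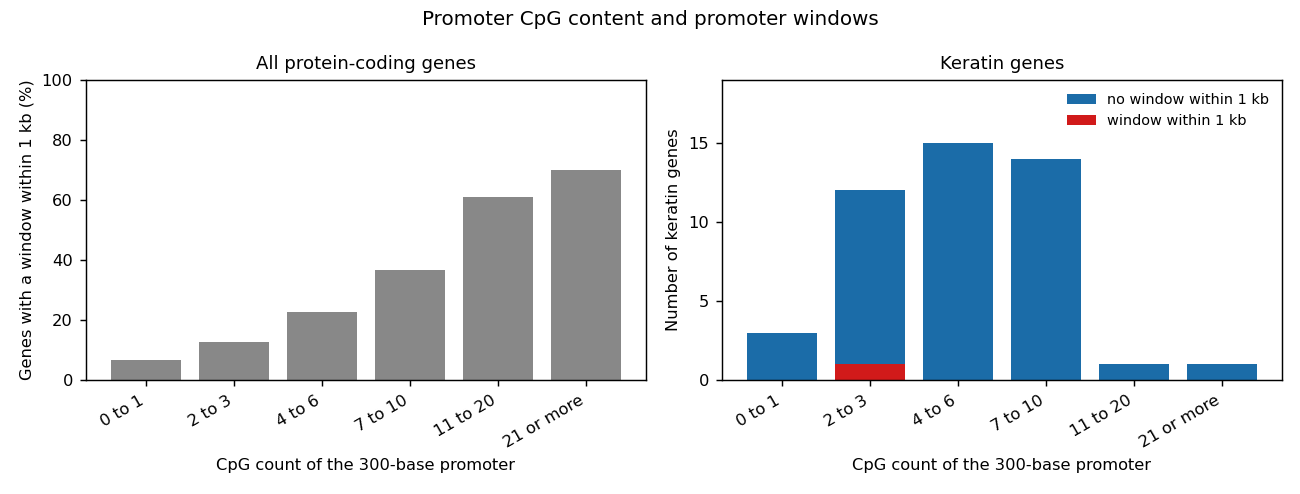
Share of all protein-coding genes with a window within 1 kb (left, y axis in %) and number of keratin genes (right, red where they have such a window) by the CpG count of the 300 bases around the start (x axis). The share of all genes climbs from 6.62% to 70.1%, and 44 of 46 keratin genes are in the 4 classes up to 10 CpG, with the window of Krt24 in the second class.

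A TATA box was common in keratin promoters. The word TATAAA stood 40 to 16 bases before the start, on the strand of the gene, in 15 of 46 (32.6%), against 2.37% of all protein-coding genes. It was in 12 of the 25 on chromosome 11 (48.0%) and 3 of the 21 on chromosome 15 (14.3%), and in 5 of 7 inner root sheath keratins. The 45 bases before the start, read on the strand of the gene, are given for 4 keratins with the word (in capitals) and for the luminal and basal pairs of the mammary gland, which lack it.
Krt10, chr11:99250679-99250723, strand minus: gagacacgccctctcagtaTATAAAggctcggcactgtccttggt
Krt16, chr11:100110277-100110321, strand minus: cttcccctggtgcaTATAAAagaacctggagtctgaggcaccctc
Krt17, chr11:100122344-100122388, strand minus: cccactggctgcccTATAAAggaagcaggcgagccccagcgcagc
Krt31, chr11:99911866-99911910, strand minus: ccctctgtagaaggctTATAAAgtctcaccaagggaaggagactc
Krt5, chr15:101543323-101543367, strand minus: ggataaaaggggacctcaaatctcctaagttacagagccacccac
Krt14, chr11:100068863-100068907, strand minus: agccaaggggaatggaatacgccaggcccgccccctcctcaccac
Krt8, chr15:101834774-101834818, strand minus: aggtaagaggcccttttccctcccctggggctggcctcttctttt
Krt18, chr15:101858602-101858646, strand plus: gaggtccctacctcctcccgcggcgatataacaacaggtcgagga
In these stretches the word began 26 bases before the start of Krt10, 31 before Krt16 and Krt17, and 29 before Krt31. No match says only that these letters are not in this window. The AP-1 word was in the 300-base promoters of Krt4 and Krt16 (4.35% of keratin genes, against 4.42% of all protein-coding genes).

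Words of factor families were searched on both strands of the 33 windows, and AP-1 was looked at first because this dimer of Jun and Fos proteins acts at many epidermal genes. It occurred in 6 of 33 windows (18.2%, interval 6.98% to 35.5%), against 13.5% of all 50000. All 6 were among the 25 within the clusters (24.0%). They were the window 4822 bp upstream of Krt39, the one 5190 bp upstream of Krt31, a pair at Krt80 (in intron 2 and 3404 bp upstream), the one 19670 bp upstream of Krt78 and the one 11920 bp upstream of Krt18. Stretches around the AP-1 words are given on the plus strand for the 5 not printed yet, with AP-1 and TEAD words in capitals.
upstream of Krt39, chr11:99387527-99387626: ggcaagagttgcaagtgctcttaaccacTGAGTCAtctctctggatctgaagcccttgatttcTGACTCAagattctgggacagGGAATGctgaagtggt
upstream of Krt31, chr11:99917125-99917224: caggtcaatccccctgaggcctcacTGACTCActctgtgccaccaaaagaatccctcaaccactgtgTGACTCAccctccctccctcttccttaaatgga
inside Krt80, chr15:101190916-101191011: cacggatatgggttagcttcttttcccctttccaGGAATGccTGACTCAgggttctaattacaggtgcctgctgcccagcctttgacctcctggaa
upstream of Krt80, chr15:101204058-101204157: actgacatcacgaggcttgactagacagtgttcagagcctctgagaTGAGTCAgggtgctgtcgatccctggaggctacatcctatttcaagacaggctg
upstream of Krt78, chr15:101804388-101804487: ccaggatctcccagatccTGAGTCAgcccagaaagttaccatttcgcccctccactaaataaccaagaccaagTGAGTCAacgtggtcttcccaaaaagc
In 4 of the 6, those at Krt39, Krt31, Krt78 and Krt18, the AP-1 word occurred 2 times or more (66.7%, interval 22.3% to 95.7%), against 12.8% of the 6766 windows with the word in the whole set. This count of copies was not planned and rests on those 6 windows, so no trait of keratin windows was read from it. The Krt18 window held TGAGTCA and TGACTCA on either side of the AP-2 word GCCTGAGGC, all within the 150 bases printed at the start. It lies between the diverging Krt8 and Krt18 genes.

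Other words were at shares near those of all windows or rested on few windows. TEAD, a partner of the growth regulator YAP, was in 8 keratin windows (24.2%, against 24.3%), AP-2, a factor family of epidermis and mammary gland, in 7 (21.2%, against 19.4%) and GRHL (AACNNGTT), a family of epithelial factors, in 2 (6.06%, against 6.64%). C/EBP (TTGCNNAA) was in 4 (12.1%, against 17.3%) and KLF (CCACACCC) in 1 (3.03%, against 5.62%). RUNX (TGTGGTT) and Ets (CCGGAA), families with prominent members in leukocytes, were in 1 each (3.03%, interval 0.0767% to 15.8%), against 11.6% and 13.8%, which the interval includes. Among windows over 1 kb from every start, which 29 of the 33 were, Ets was in 1 keratin window (3.45%), against 7.52% of all, and RUNX in 1, against 13.2%. The word for CTCF, a factor that anchors chromatin loops, was in 4 (12.1%, interval 3.40% to 28.2%), against 4.26%. Over 1 kb from every start it was in 3 of 29 (10.3%, interval 2.19% to 27.4%), against 2.93%. Inside the clusters it was in 2 of 25 (8.00%, interval 0.984% to 26.0%). CTCF windows lay in the Krtap part next to Krt40, between Krt74 and Krt73, 31288 bp downstream of the Krt80 start, and at Eif4b. GC content had a median of 51.6% in keratin windows and 49.8% in all windows, and the median CpG count was 7.00 in both. AP-2 and CTCF words can overlap the same bases, and each was counted on its own.

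**Figure D5:**
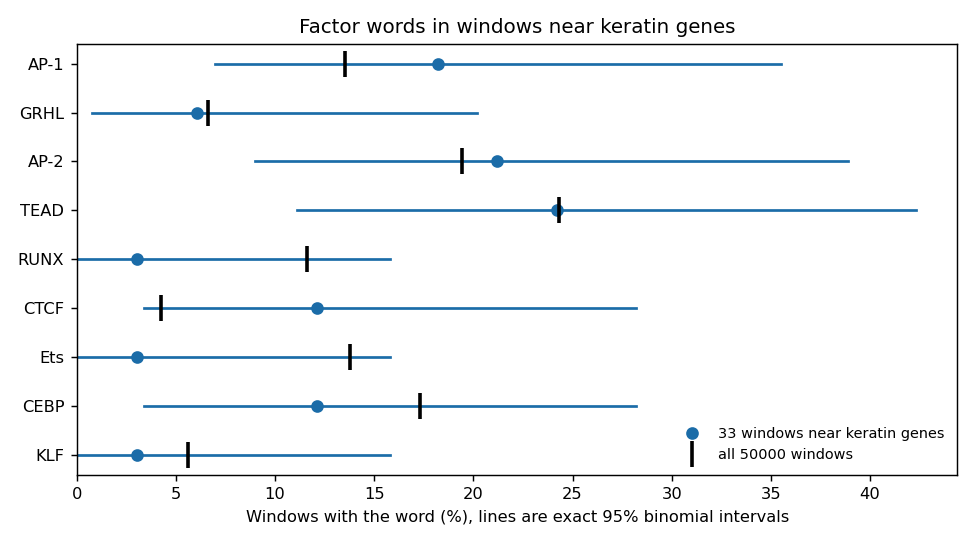
Share of windows with each word (x axis, %) for the 33 windows within 50 kb of a keratin start (points, with exact 95% binomial intervals) and for all 50000 windows (black bars). The black bar falls within the interval for each of the 9 words.

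Genes of keratin-associated proteins, which crosslink keratins in the hair shaft and lie partly inside the type I cluster, were set beside the keratins. None of 46 Krtap genes had a promoter window (interval 0% to 7.71%), and 26 (56.5%) had a window within 50 kb, against 42 of 46 keratin genes. Their median distance to a window was 36526 bp, and 15447 bp for keratins. Of the 22 Krtap genes inside the chromosome 11 cluster, 12 had a window within 50 kb. TATAAA was found in 26 Krtap promoters (56.5%) and the median CpG count was 2.00, lower than the 6.00 of keratins.

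Genes whose products work with keratins were counted the same way. Among proteins that anchor keratin filaments at cell junctions, 6 of 9 genes had a promoter window (66.7%, interval 29.9% to 92.5%), namely Jup, Pkp2, Pkp3, Ppl, Plec and Dst, whereas Dsp, Pkp1 and Evpl had none. Plec, which links intermediate filaments to other parts of the cytoskeleton, had 7, on chromosome 15. Of 12 transcription factors known to act on keratin genes, 7 had one (58.3%), namely Klf4, Klf5, Grhl1, Ovol1, Elf3, Sp1 and Tcfap2a (AP-2 alpha), and Trp63, the master factor of basal epithelium, was without one, as were Grhl2, Grhl3, Ehf and Tcfap2c. Of 16 intermediate filament genes outside the keratin family, 6 had one (37.5%), including Vim, the filament of mesenchymal cells and leukocytes, and Lmna, the nuclear lamin. The background for each of these counts is the 43.4% of all protein-coding genes. Among the genes counted with a window, Pkp3 and Synm lie on chromosome 7 and Bfsp2 on chromosome 9, where 41.5% and 50.6% of called peaks were kept, against 25.8% and 23.8% on the keratin chromosomes 11 and 15. The part of this in the counts was not tested.

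Markers of the cell types in the tumor were read beside the keratins. Of 7 luminal markers, Cdh1, Elf3 and Cldn4 had a promoter window, while Krt8, Krt18, Krt19 and Epcam had none. Epcam had a window 1254 bp from a start, just past the 1 kb limit, and 9 within 50 kb. Of 5 basal markers only Acta2, the smooth muscle actin of myoepithelium, had one, while Krt5, Krt14, Trp63 and Myh11 had none. Cdh1 lies on chromosome 8 and Coro1a on chromosome 7, where 51.9% and 41.5% of called peaks were kept. Of 4 leukocyte markers Coro1a, Laptm5 and Ikzf1 had one and Ptprc, which encodes CD45, had none. Ptprc had 4 windows within 50 kb, the nearest at 16678 bp. The study reported open chromatin specific to the cell type at the loci of Epcam and CD45 in these cells. Since the set pools all wells, the part of the cell mixture in the keratin values was not tested.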

How the data were processed

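Single cells of an MMTV-PyMT mammary tumor, stained with antibodies to EpCAM and CD45, were profiled by Pi-ATAC in 4 plates of 96 wells. The deposited file holds positions of windows (a unit of its own, neither counts nor signal) that the authors called once for all wells. Per the labels and the study's methods, reads were cleared of adapter sequence, aligned to mm9 (Bowtie2 2.1.0), and duplicates (Picard 1.79), low-quality and mitochondrial reads were discarded. MACS2 (version not given in the sources used here) then found summits in the aggregated cells at a q-value threshold of 0.05, and the authors widened summits to 500 bp and retained the 50000 with the lowest q. The retained set has 0 score columns, so depth per well or window is unknown, and windows that fell below the limit are absent.

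Positions were placed on the NCBIM37 sequence and GENCODE vM1 genes (both mm9), counting from 1, with Python 3.11.15, numpy 2.4.6, scipy 1.17.1 and matplotlib 3.10.9. No window ran past a chromosome end. A window was assigned by its centre to any annotated transcript start, with 1 kb for promoters and 50 kb for reach. Clusters ran from the first to the last base of their keratin genes. Promoter sequence covered 250 bases before to 50 after the 5′ end of each gene. Of 52 genes on the lists, markers included, 49 had the symbol used in GENCODE vM1 and 2 an older one (Tcfap2a, Tcfap2c), and Eppk1 was not used here. Intervals are exact binomial (Clopper-Pearson) or exact Poisson at 95%.

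All wells form 1 group without replicates, so no test was made. Members, groups and lists were chosen with earlier results of these data known. Named are genes with a promoter window, genes nearest to a window, Krt5, Krt14, Krt8, Krt18, Krt19 and Krt7, and those with most windows within 50 kb, with the other members given by group. The AP-1 windows, the 45-base stretches and the blocks of each cluster were added after values had been seen. The counting procedures were tested on simulated data. Alternatives changed the promoter distance, the reach, the start sites, the placing and merging of windows, the symbols accepted, the cluster edges and the form of the AP-1 word.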

Additional observations from a re-analysis of the deposited data

How the results depend on the processing

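With a promoter distance of 2 kb, 3 keratin genes had a window (Krt24, Krt19 and Krt42), against 47.0% of all protein-coding genes, and with any base of a window within 1 kb, 2 did (Krt24 and Krt19). Krt19 and Krt42 were counted through starts inside the gene. The count stayed at 1 with 500 bp, against 40.1% of all protein-coding genes. It also stayed at 1 with only the 5′ end of each gene, with symbols ending in a letter added and with overlapping windows merged. For these settings and for any base of a window, the share of all protein-coding genes was not computed. A reach of 10 kb left 19 distinct windows and a median of 0 per keratin gene (1.00 over all protein-coding genes), and a reach of 100 kb gave 42 windows and a median of 3.00 (6.00 over all). Counting called peaks in place of kept windows gave at least 54 on chromosome 11 and 69 on chromosome 15, more by construction. Clusters widened by 50 kb held 13 and 21 windows. The AP-1 share was 24.0% within the clusters (13.5% of all windows), 20.7% over 1 kb from every start (15.6%) and 21.2% with a free middle letter (18.4%). A run on the 25000 windows with the highest score was not made, because the windows carry none. No replicate could be left out, and the pooled windows, called once and cut at a fixed number, limit what an absent window can show. No paired analysis was possible because the wells form 1 group and were pooled.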
